A study of Mus musculus with 11 samples.

Results

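The nuclear-encoded genes of oxidative phosphorylation were described over 11 expression arrays of splenic T-cells from wild-type mice and from mice with a TCL1A-driven T-cell leukemia. The genes were chosen by symbol alone. A gene was taken where its symbol began with Nduf, Uqcr or Atp5, was Sdha, Sdhb, Sdhc or Sdhd, or began with Cox followed by a digit from 4 to 8. This rule found 113 rows of 89 genes, among 19937 genes measured in all, and 0 pseudogenes had to be left out. A gene with more than 1 row was represented by its brightest row on average. Ndufb4 and Cox7c had no row of their own and were not analysed here, and neither were the mitochondrially encoded subunits.

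The leukemia mice carried the transgene Lckpr-TCL1A+/-, in which the proximal Lck promoter drives human TCL1A in T-lineage cells. RNA of the leukemia arrays came from spleen cells enriched for CD8+ T-cells. In the chronic phase (n = 3 arrays, average age 12 months) 30 to 70% of the cells in blood and spleen were tumor cells. In the exponential phase (n = 5 arrays, average age 15 months) tumor cells exceeded 80% in blood and 90% in spleen, and blood lymphocytes doubled in a mean of 12 days (SEM 0.8). The wild-type group (n = 3 arrays) held CD3+ pan T-cells of age-matched C57BL/6 mice, with 3 mice pooled on each array. Genotype and cell selection differed together between leukemia and wild type and cannot be told apart. The labels do not say if every leukemia array came from a mouse of its own, and the p-values reflect only how these arrays varied.

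Oxidative phosphorylation takes place in the inner mitochondrial membrane. Complex I oxidises NADH and complex II oxidises succinate, both pass electrons through coenzyme Q to complex III, and cytochrome c carries them on to complex IV, which reduces oxygen. Complexes I, III and IV pump protons, and complex V, the ATP synthase, uses the returning protons to make ATP. Resting T-cells draw much of their ATP from this chain, and activated T-cells enlarge their mitochondria while also raising glycolysis. The subunits are encoded by both genomes, and most of them by the nucleus.

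By complex, the 89 genes comprised 34 subunits of complex I (6 of the catalytic core and 28 accessory), 7 assembly factors of complex I, 4 subunits of complex II, 8 of complex III, 11 of complex IV and 17 of complex V (5 of the F1 part and 12 of the Fo part and the stalk). Ndufa4 and Cox7a2l were counted with complex IV. The remaining 8 were isoforms used mainly in other tissues or states, such as the muscle form Cox6a2 and the hypoxia-linked Ndufa4l2. All levels are log2 values of the deposited, quantile-normalized array signal, so a difference of 1 is a doubling of the signal. Levels of different genes were not set against each other, because each gene is read by its own probes.

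The oxidative phosphorylation genes lay somewhat higher in the chronic phase than in wild type, with the exponential phase between them but overlapping both. The median level of the 89 genes was 4.87, 4.88 and 5.10 on the wild-type arrays 1 to 3. It was 5.29, 5.16 and 5.36 on the chronic arrays, all above the wild-type arrays. On the exponential arrays 1 to 5 it was 5.14, 5.19, 5.20, 5.13 and 4.98, which overlapped wild type only through exponential replicate 5. In these bulk samples, fewer cells of a type and less RNA per cell cannot be told apart.

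Gene by gene, 64 of the 89 genes had a higher mean in the chronic phase than in wild type, and their median log2 difference was 0.18, against a median of -0.002 and 49.7% above 0 over all genes. For exponential against wild type 58 genes had a higher mean, with a median of 0.08 (all genes 0.007, with 51.7% above 0). For exponential against chronic 59 genes had a lower mean and 30 a higher one, with a median of -0.12 (all genes 0.004, with 51.1% above 0). Both comparisons with wild type share the same 3 control arrays, and both comparisons with the chronic phase share its 3 arrays, so the 3 sets of values are not independent.

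**Figure D1:**
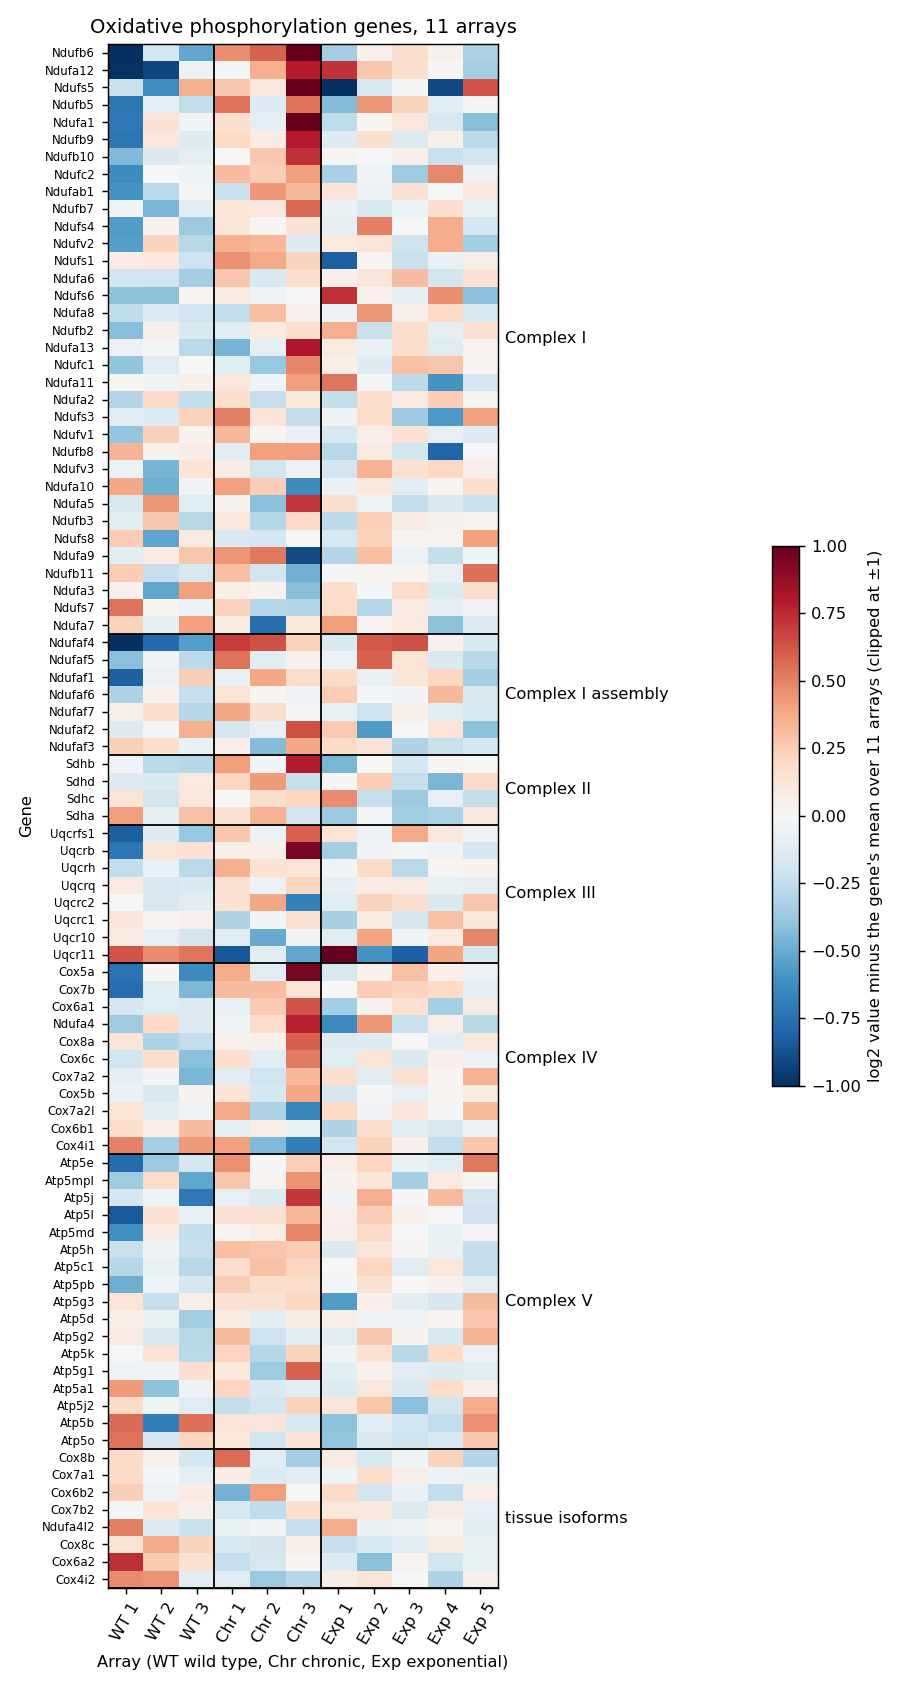
Each row is 1 of the 89 genes, grouped by complex and ordered within a group by the difference between chronic phase and wild type, and each column is 1 array (WT wild type, Chr chronic, Exp exponential). Colour gives the log2 value minus the gene's mean over the 11 arrays, clipped at 1 in either direction, and chronic replicate 3 holds many of the darkest red cells while wild-type replicate 1 holds many of the darkest blue ones.

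Few single genes passed the test. A gene was called where limma gave an adjusted p under 0.05 over all genes with a fold of at least 1.5. In chronic against wild type 1 of the 89 genes was called, Ndufaf4, where 0.456% of all genes were. At an unadjusted p under 0.05 there were 19 higher and 4 lower, against 6.36% and 4.80% of all genes. In exponential against wild type limma called 0 of the 89 genes (0.416% of all genes), and the methods' t-test with the same adjustment also called 0. At an unadjusted p under 0.05, 10 were higher and 4 lower, against 4.79% and 4.99% of all genes. In exponential against chronic limma called 0 of the 89 genes and 0% of all genes, and the methods' t-test called 0. Here 0 were higher and 9 lower at an unadjusted p under 0.05, against 2.75% and 3.50% of all genes.

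The ranges of the groups gave similar counts in chronic against wild type and fewer genes in the other comparisons. In the chronic phase 18 of the 89 genes had all 3 arrays above all wild-type arrays, where 8.28% of all genes did, and 5 had all arrays below, where 7.52% of all genes did. In the exponential phase 5 genes lay wholly above wild type (3.28% of all genes) and 2 wholly below (3.5%). Between the leukemia phases, 0 genes lay wholly higher in the exponential phase (2.3% of all genes) and 5 wholly lower (2.25% of all genes). The share of the 89 genes was thus above that of all genes for higher values in the chronic phase, and near it for lower values there. Many of all genes were dim, and ranges were not counted without them. Without the dimmest 50% of genes, 16 of 82 genes were higher and 3 lower at an unadjusted p under 0.05 in chronic against wild type. The shares of all genes were then 8.64% and 6.29%. In exponential against wild type 9 were higher and 2 lower, against 6.85% and 6.17%.

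**Figure D2:**
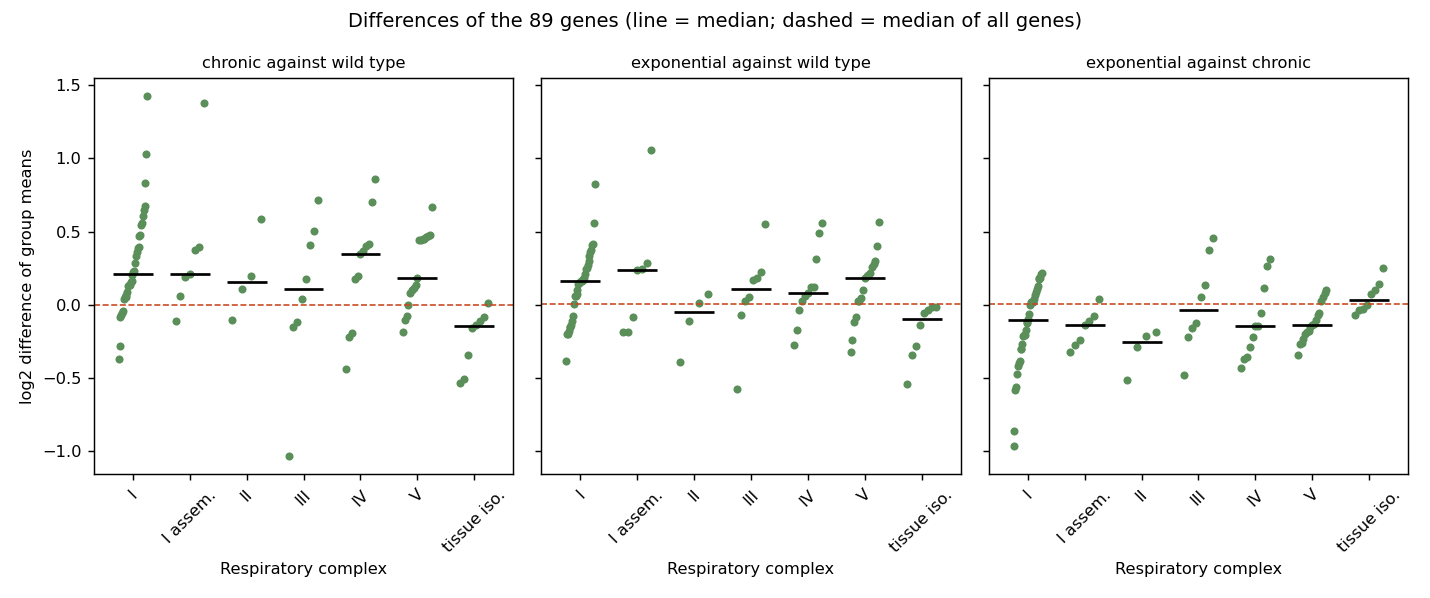
Each point is 1 of the 89 genes, placed by complex, with the log2 difference of group means on the vertical axis and 1 panel per comparison; the short line is the median of the complex and the dashed line the median of all genes. Complexes I to V have medians of 0.11 to 0.34 in chronic against wild type, and those of exponential against chronic lie between -0.25 and -0.04.

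Ndufaf4, which encodes an assembly factor that helps build complex I, was the only called gene. Its log2 level was 4.40, 4.87 and 5.10 in wild type and 6.34, 6.29 and 5.88 in the chronic phase. The chronic arrays all lay above the wild-type arrays, and Ndufaf4 rose by 1.38 on the log2 scale (SE 0.21, a 2.60-fold change, adjusted p = 0.0466). The call stood close to the threshold. It was kept in 7 of 18 alternative settings, in which the adjusted p ran from 0.0137 to 0.380, and was lost on leaving out wild-type replicate 1 (0.134), 2 (0.153) or 3 (0.0814) or chronic replicate 1 (0.119) or 2 (0.142). The difference itself lay between 1.19 and 1.54 when any of these 6 arrays was left out.

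In the exponential phase Ndufaf4 stood at 5.50, 6.26, 6.28, 5.69 and 5.50. All 5 arrays again lay above wild type, with a log2 difference of 1.06 (SE 0.24) that was not called (adjusted p = 0.113). Exponential against chronic gave -0.32 (SE 0.22, adjusted p = 0.860), with overlapping arrays. The other 6 assembly factors of complex I had differences of -0.11 to 0.40 in chronic against wild type. Ndufaf5, a methyltransferase-like factor, and Ndufaf1 had the largest of them, with log2 levels that overlapped wild type. As a group the 7 assembly factors had a median of 0.21 in chronic against wild type and 0.23 in exponential against wild type, and without wild-type replicate 1 these were 0.14 and -0.04. Without exponential replicate 2 the second was 0.15.

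Among the subunits of complex I, 28 of 34 had a higher mean in the chronic phase (median 0.21) and 25 of 34 in the exponential phase (median 0.16) than in wild type. Without wild-type replicate 1 the exponential median was 0.11. Between chronic phase and wild type 24 of the 28 accessory subunits had a higher mean, with a median of 0.23, and 4 of the 6 core subunits did, with a median of 0.13. The largest difference of all 89 genes was that of Ndufb6, an accessory subunit of the membrane arm. Its log2 level was 3.18, 4.25 and 3.90 in wild type, 4.88, 5.01 and 5.71 in the chronic phase, and 4.07, 4.46, 4.59, 4.46 and 4.10 in the exponential phase. The chronic arrays lay above every other array. Ndufb6 differed by 1.42 (SE 0.31) in chronic against wild type and was not called (adjusted p = 0.125), except with a variance trend and robust estimation (adjusted p = 0.0352). In exponential against chronic it differed by -0.86 (SE 0.20, adjusted p = 0.661).

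Ndufa12, an accessory subunit near the site of NADH oxidation, stood at 3.40, 3.46 and 4.33 in wild type and at 4.36, 4.75 and 5.17 in the chronic phase. The groups did not overlap, although wild-type replicate 3 came within reach of the lowest chronic array, and the difference of 1.03 (SE 0.29) was not called (adjusted p = 0.232). In the exponential phase its levels of 5.11, 4.67, 4.54, 4.40 and 4.05 overlapped wild type (difference 0.82, SE 0.27, adjusted p = 0.301). Ndufs5, another accessory subunit, had the most negative difference in exponential against chronic, -0.97 (SE 0.44, adjusted p = 0.795). Its log2 levels were 4.47, 4.32 and 5.82 in the chronic phase and 3.14, 4.05, 4.19, 3.31 and 4.84 in the exponential phase. Chronic replicate 3 was its highest array, and the difference was -0.49 without it. Ndufa1, also an accessory subunit, had means of 5.52 ± 0.72 (SD, n = 3) and 4.93 ± 0.21 (SD, n = 5) in chronic and exponential phase, with overlapping arrays.

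The core subunits of complex I carry its flavin and iron-sulfur centres. Ndufs1, which holds several iron-sulfur clusters, stood at 5.52, 5.54 and 5.24 in wild type, 5.90, 5.82 and 5.67 in the chronic phase, and 4.62, 5.47, 5.22, 5.37 and 5.50 in the exponential phase. Chronic arrays lay above both other groups, with a difference of 0.36 (SE 0.14, adjusted p = 0.367) from wild type. In exponential against chronic Ndufs1 differed by -0.56 (SE 0.19, adjusted p = 0.774). Ndufv1, the subunit where NADH is oxidised, had a mean of 3.53 ± 0.32 (SD, n = 3) in wild type, and in chronic and exponential phase means of 3.66 ± 0.21 (SD, n = 3) and 3.53 ± 0.13 (SD, n = 5), with overlapping arrays. Ndufs8, another core subunit, had means of 2.55 ± 0.09 (SD, n = 3) and 2.76 ± 0.22 (SD, n = 5) in chronic and exponential phase, which overlapped.

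Complex II is the only respiratory complex that is also an enzyme of the citric acid cycle, and all of its subunits are encoded in the nucleus. Against wild type, 3 of its 4 genes had a higher mean in the chronic phase (median 0.15), and the median was 0.07 without chronic replicate 2 and 0.08 without wild-type replicate 2. In exponential against chronic all 4 had a lower mean (median -0.25), and 0 were called. Sdha, the flavoprotein that oxidises succinate, stood at 6.92, 6.42 and 6.79 in wild type, 6.65, 6.85 and 6.32 in the chronic phase and 6.14, 6.48, 6.16, 6.18 and 6.62 in the exponential phase. The groups overlapped, and Sdha had a difference of -0.39 (SE 0.16, adjusted p = 0.439) in exponential against wild type. Sdhb, the iron-sulfur subunit, stood at 3.38, 3.14 and 3.13 in wild type and 3.83, 3.39 and 4.19 in the chronic phase, a difference of 0.59 (SE 0.21, adjusted p = 0.338) with groups that met closely but did not overlap. Its exponential levels, 2.95, 3.42, 3.24, 3.44 and 3.41, overlapped both other groups.

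In complex III the genes went apart. Their median in chronic against wild type was 0.11, and it was 0.07 without wild-type replicate 2 and 0.16 without chronic replicate 3. Uqcrfs1, the Rieske iron-sulfur protein, stood at 4.19, 4.87 and 4.64 in wild type, 5.29, 4.95 and 5.60 in the chronic phase and 5.14, 4.96, 5.39, 5.13 and 4.98 in the exponential phase. All 8 leukemia arrays lay above the wild-type arrays, and neither difference was called (chronic 0.71, SE 0.22, adjusted p = 0.276, and exponential 0.55, SE 0.16, adjusted p = 0.243). Uqcr11, a small structural subunit, had the most negative difference of the 89 genes in chronic against wild type. It stood at 4.48, 4.32 and 4.39 in wild type and at 3.00, 3.75 and 3.33 in the chronic phase, and the groups did not overlap (difference -1.04, SE 0.19, adjusted p = 0.0802). In the exponential phase its levels of 4.87, 3.25, 3.04, 4.24 and 3.68 reached from above wild type to the bottom of the chronic range, with an SD of 0.75 that was the largest of any of the 89 genes in that group. A dimmer row for the same symbol gave a difference of only -0.22 in chronic against wild type. In exponential against wild type that row gave 0.09, where the row used gave -0.58. The genome positions read by the rows were not examined, and which row reads the gene better was not tested. In exponential against chronic Uqcr11 had the largest positive difference of the 89 genes, 0.46 (0.31 in the dimmer row), with overlapping arrays. Uqcr10 had means of 4.58 ± 0.25 (SD, n = 3) and 4.96 ± 0.27 (SD, n = 5) in chronic and exponential phase, which overlapped. The core protein Uqcrc1 had a mean of 3.39 ± 0.05 (SD, n = 3) in wild type, and in chronic and exponential phase means of 3.28 ± 0.23 (SD, n = 3) and 3.33 ± 0.25 (SD, n = 5), and the groups overlapped.

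**Figure D3:**
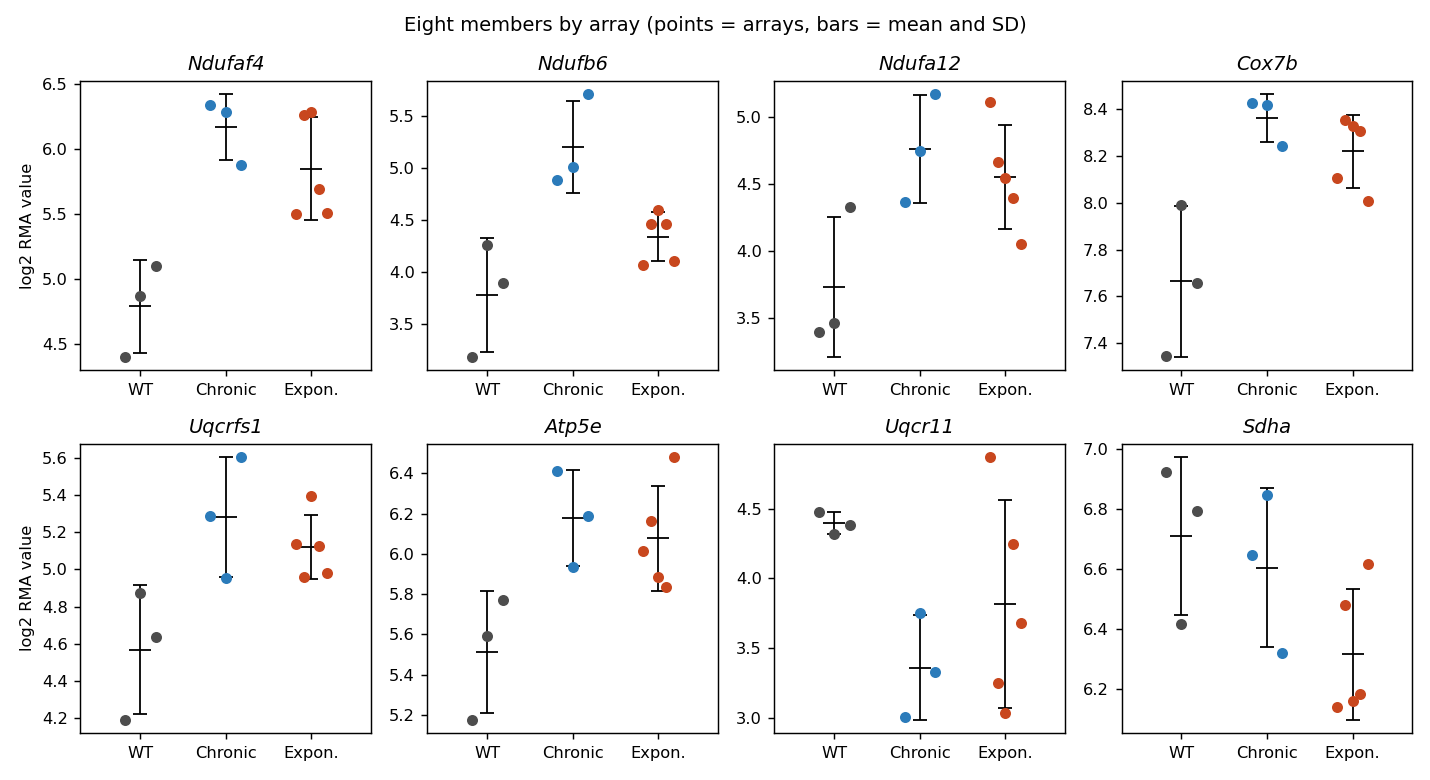
Log2 values of 8 genes, 1 panel each with its own vertical axis, with 1 point per array in wild type (WT, n = 3), chronic (n = 3) and exponential phase (Expon., n = 5) and bars for the mean and SD. Ndufaf4, Cox7b, Uqcrfs1 and Atp5e have all 8 leukemia arrays above wild type, while Uqcr11 spreads from 3.04 to 4.87 within the exponential phase.

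Complex IV had the highest median of the complexes in chronic against wild type, 0.34, with 8 of 11 genes above 0 and 0 called. That median depended on chronic replicate 3, and was 0.17 without it and 0.23 without wild-type replicate 3. Cox7b, a small subunit that stabilises the complex, stood at 7.34, 7.99 and 7.66 in wild type, 8.43, 8.42 and 8.24 in the chronic phase and 8.11, 8.35, 8.33, 8.31 and 8.01 in the exponential phase. Its 8 leukemia arrays all lay above wild type (chronic difference 0.70, SE 0.18, adjusted p = 0.178, and exponential 0.56, SE 0.15, adjusted p = 0.208). A second row for the gene gave nearly the same differences, 0.71 and 0.54. Cox5a, which lies on the matrix side of the complex, stood at 5.07, 5.81 and 5.16 in wild type and 6.18, 5.70 and 6.75 in the chronic phase, with overlapping arrays and a difference of 0.86 (SE 0.30, adjusted p = 0.327). Ndufa4, once counted to complex I, had overlapping levels throughout, with means of 7.44 ± 0.28 (SD, n = 3), 7.84 ± 0.42 (SD, n = 3) and 7.41 ± 0.40 (SD, n = 5) in wild type, chronic and exponential phase.

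Several subunits of complex IV exist as a general form and a form of particular tissues. The 8 tissue isoforms lay at log2 levels of 1.41 to 4.35 over all arrays, in a table whose median was 2.30 and whose maximum was 13.5. Of the 8, 7 had a lower mean in chronic against wild type (median -0.15), in exponential against wild type all 8 did (median -0.10), and limma called 0 in either, with 3 and 2 lower at an unadjusted p under 0.05 (4.80% and 4.99% of all genes). The median was -0.25 without chronic replicate 2 in the first comparison and -0.15 without wild-type replicate 3 in the second. Cox6a2, the heart and muscle form, stood at 4.35, 3.87 and 3.76 in wild type, 3.38, 3.45 and 3.63 in the chronic phase and 3.47, 3.19, 3.64, 3.43 and 3.54 in the exponential phase. All leukemia arrays lay below wild type (chronic difference -0.51, SE 0.18, adjusted p = 0.327, and exponential -0.54, SE 0.15, adjusted p = 0.221). Cox8c, a testis form, also lay below wild type on all 8 leukemia arrays (exponential difference -0.34, SE 0.10, adjusted p = 0.267). Cox4i2, the form of lung and of low oxygen, stood at 2.98, 2.95 and 2.40 in wild type and 2.39, 2.13 and 2.22 in the chronic phase, so that the groups only just did not overlap (difference -0.53, SE 0.18, adjusted p = 0.318). Its exponential levels of 2.58, 2.65, 2.51, 2.20 and 2.57 overlapped both other groups, with a difference of 0.25 in exponential against chronic.

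The general forms went differently from gene to gene. Cox6a1 stood at 7.15, 7.20 and 7.18 in wild type and at 7.24, 7.58 and 7.95 in the chronic phase (difference 0.41, SE 0.18, adjusted p = 0.452), with no overlap. Cox4i1 had means of 6.25 ± 0.46 (SD, n = 3), 5.81 ± 0.57 (SD, n = 3) and 6.07 ± 0.23 (SD, n = 5) in wild type, chronic and exponential phase, with overlapping arrays. Cox8a and its muscle form Cox8b both had overlapping arrays in the 3 groups, and so did Cox7a2, its muscle form Cox7a1 and the related Cox7a2l. Cox7a2 had a difference of 0.31 (SE 0.14, adjusted p = 0.506) in exponential against wild type. In exponential against chronic Cox7a2l differed by 0.31, and by 0.05 in its dimmer row.

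In complex V, 13 of 17 genes had a higher mean than wild type in each leukemia phase, with a median of 0.18 in both, and 13 of 17 had a lower mean in the exponential than in the chronic phase (median -0.14). These medians depended on single arrays and on the normalization. Against wild type, the exponential one was 0.07 without wild-type replicate 3, and the chronic one was 0.32 without chronic replicate 2, 0.10 with cyclic loess and 0.11 with a repeated quantile normalization. Between the leukemia phases the median was -0.22 without chronic replicate 2, -0.08 without chronic replicate 3 and -0.09 without exponential replicate 1. Atp5e, the epsilon subunit of the central stalk, stood at 5.18, 5.59 and 5.77 in wild type, 6.41, 5.94 and 6.19 in the chronic phase and 6.02, 6.16, 5.89, 5.84 and 6.48 in the exponential phase. The leukemia arrays all lay above wild type (chronic difference 0.67, SE 0.19, adjusted p = 0.235, and exponential 0.56, SE 0.18, adjusted p = 0.287). Atp5h, subunit d of the peripheral stalk, was tight within groups, at 7.50, 7.67 and 7.49 in wild type and between 7.98 and 8.02 on all 3 chronic arrays. Its exponential levels of 7.58, 7.85, 7.73, 7.65 and 7.49 lay below the chronic and overlapped the wild-type arrays. The difference was 0.45 (SE 0.11, adjusted p = 0.180) in chronic against wild type and -0.34 (SE 0.10, adjusted p = 0.765) in exponential against chronic. Atp5pb, the b subunit of the same stalk, also had all chronic arrays above all arrays of the other groups, at 7.58 to 7.65 against 6.91 to 7.36 in wild type and 7.31 to 7.55 in the exponential phase. A dimmer row for Atp5pb gave smaller differences from wild type, 0.20 in chronic and -0.004 in exponential phase, against 0.44 and 0.26 in the row used.

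The catalytic subunits of the ATP synthase did not share this pattern. Atp5b, the beta subunit, had means of 8.30 ± 0.72 (SD, n = 3), 8.20 ± 0.16 (SD, n = 3) and 8.06 ± 0.33 (SD, n = 5), and Atp5a1, the alpha subunit, 6.65 ± 0.42 (SD, n = 3), 6.65 ± 0.20 (SD, n = 3) and 6.68 ± 0.15 (SD, n = 5), in wild type, chronic and exponential phase. Atp5b had the widest spread of the 89 genes in wild type, from 7.47 to 8.73. Atp5g1, Atp5g2 and Atp5g3 encode the same mature c subunit of the proton-turned ring. Atp5g3 stood at 8.42, 8.06 and 8.34 in wild type and at 8.43, 8.44 and 8.51 in the chronic phase, a difference of 0.18 (SE 0.13, adjusted p = 0.718), and the levels of Atp5g1 and Atp5g2 overlapped between all groups.

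**Figure D4:**
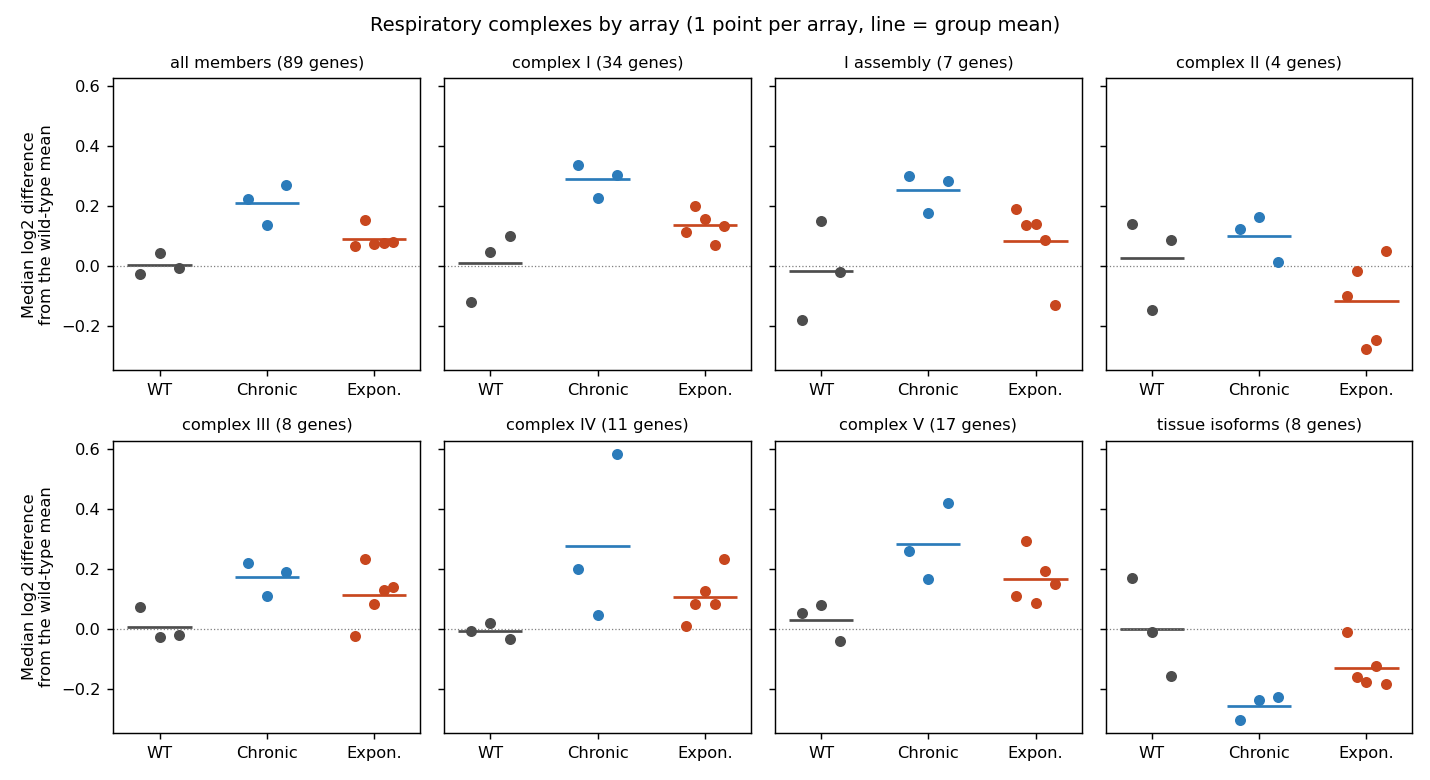
The vertical axis gives, for each array, the median over the genes of a complex of the log2 value minus the gene's wild-type mean, with 1 panel for all 89 genes and 1 for each complex, 1 point per array and a line at the group mean. For the 89 genes the wild-type arrays lie at -0.03 to 0.04, the exponential arrays at 0.07 to 0.15 and the chronic arrays at 0.14 to 0.27. The wild-type points are drawn towards 0 because the mean of these same arrays was subtracted. Complex IV on chronic replicate 3 stands apart at 0.58.

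Array by array, chronic replicate 3 and wild-type replicate 1 stood at the ends. Chronic replicate 3 held the highest value of 31 of the 89 genes (34.8%, against 14.0% of all genes), among them 12 of complex I and 6 each of complexes IV and V. Wild-type replicate 1 held the lowest value of 28 (31.5%, against 12.5% of all genes), among them 15 of complex I. Without chronic replicate 3 the median difference of chronic against wild type was 0.18, with 63 of 89 genes above 0. Leaving out wild-type replicate 1 gave 0.18 and 68 genes. For exponential against chronic, however, the median was -0.06 without chronic replicate 3, with 37 genes above 0 in place of 30. Other normalizations moved the first of these medians as well, to 0.11 with cyclic loess and 0.13 with a repeated quantile normalization. For exponential against wild type both gave a median of 0.05, with 50 and 51 of the 89 genes above 0, in place of 0.08 and 58.

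**Figure D5:**
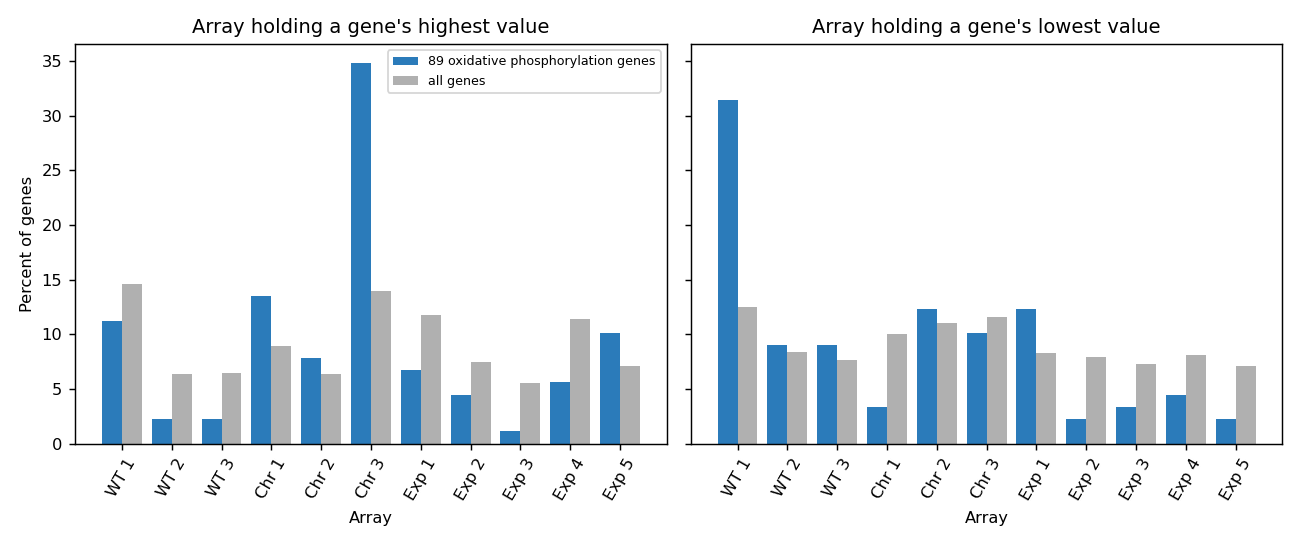
Bars give the percent of genes whose highest (left) or lowest (right) value over the 11 arrays was on the array named on the horizontal axis, for the 89 genes (blue) and for all genes (grey). Chronic replicate 3 reaches 34.8% of the 89 genes on the left and wild-type replicate 1 reaches 31.5% on the right.

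Within groups the median SD of the 89 genes was 0.24 in wild type, 0.27 in the chronic phase and 0.20 in the exponential phase, against 0.22, 0.24 and 0.23 for the brighter 50% of all genes.

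The T-cell marker Cd3e, a chain of the T-cell receptor complex, lay at 7.55 to 8.32 in wild type, 6.85 to 7.47 in the chronic phase and 7.24 to 7.48 in the exponential phase, so that all 8 leukemia arrays lay below wild type. Of the 7 measured T-cell genes, 7 had a lower mean in chronic against wild type (median -0.68, 0 called by limma, 5 lower at an unadjusted p under 0.05) and 6 in exponential against wild type (median -0.53, 0 called, 3 lower). Their summed linear signal was 1838 to 2615 in wild type, 1025 to 1644 in the chronic phase and 1564 to 1652 in the exponential phase. Exponential replicate 4 went against its CD8 label. Its Cd8a level was 2.96 and its Cd4 level 5.18, while the other exponential arrays had Cd8a at 7.94 to 8.20 and Cd4 at 2.15 to 2.44. Without it 0 of the 89 genes were called in exponential against wild type (1.11% of all genes), the median difference was 0.10 and 60 genes were above 0. For Ndufaf4 the difference was then 1.10 (SE 0.25, adjusted p = 0.0798).

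Lists of markers of other cell types and of cycling were set beside these values, and some differed between groups while others overlapped. The 7 CD8 and cytotoxic genes summed to 1305 to 2636 in wild type, 2461 to 4161 in the chronic phase and 88.9 to 2888 in the exponential phase, where exponential replicate 4 was lowest. In chronic against wild type limma called 2 of them higher, Gzmb and Klrd1. The 5 NK-cell genes summed to 54.0 to 92.2, 97.0 to 209 and 20.9 to 585 in the same order, with 0 called. All 14 measured genes of cycling cells had a higher mean in the chronic phase than in wild type (median 0.29, 0 called by limma, 2 at an unadjusted p under 0.05). Their summed linear signal ran from 2440 to 3102 in the chronic phase, against 2075 to 2193 in wild type. In the exponential phase it was 4105 on replicate 4 and 1664 to 2113 on the other arrays, which all lay below the chronic arrays. The 6 CD4 helper genes summed to 1073 to 1598 in wild type, 50.3 to 122 in the chronic phase and 43.9 to 228 in the exponential phase (the leukemia arrays had been selected for CD8 and the wild-type arrays for CD3). Of these 6, limma called Cd4, Cd40lg, Ctla4, Ikzf2 and Il2ra lower in chronic and Il2ra lower in exponential against wild type. The 12 myeloid genes summed to 431 to 706, 264 to 429 and 429 to 1103, the 6 plasma cell genes to 653 to 2374, 127 to 1286 and 110 to 324, and the 7 erythroid genes to 480 to 1087, 130 to 967 and 86.5 to 211, in the same order of groups. The 8 B-cell genes summed to 57.4 to 164, 47.0 to 173 and 73.9 to 378, which overlapped. In exponential against wild type the myeloid gene Lyz2 was called higher and the erythroid gene Car1 lower. The 89 genes themselves summed to 6305 to 6501, 7296 to 8090 and 6400 to 7544. The part of these markers in the differences of the 89 genes was not tested.

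Other genes of mitochondrial metabolism and its control were followed as lists. Of 33 assembly factors outside the Nduf family 21 had a higher mean in chronic against wild type (median 0.16) and 1 was called, Higd1a, which encodes a small mitochondrial protein induced by low oxygen. Higd1a stood at 3.47, 3.62 and 3.70 in wild type and 4.73, 4.40 and 4.74 in the chronic phase, a rise of 1.03 (SE 0.14, adjusted p = 0.0362), and at 4.01, 4.24, 4.02, 3.68 and 4.34 in the exponential phase (0.46, SE 0.15, adjusted p = 0.302). Of 17 genes of pyruvate dehydrogenase and the citric acid cycle 13 had a higher mean in the chronic phase (median 0.28), of 18 electron carriers and coenzyme Q enzymes 11 did (median 0.10), of 8 carriers, pores and uncoupling proteins 5 did (median 0.42) and of 21 antioxidant enzymes 9 did (median -0.09), with 0 called in each. At an unadjusted p under 0.05 these lists had 3 higher and 0 lower, 4 and 0, 5 and 0, and 2 and 4, where 6.36% of all genes were higher and 4.80% lower. In exponential against wild type limma called 0 genes of these 5 lists, and at an unadjusted p under 0.05 they had 4 higher and 4 lower, 3 and 0, 2 and 2, 3 and 2, and 1 and 4, in the order given, where 4.79% and 4.99% of all genes were.

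Among 16 transcription regulators of mitochondrial genes, 1 was called in chronic against wild type, Myc, which drives growth and mitochondrial biogenesis. Myc stood at 6.81, 6.93 and 7.10 in wild type and rose to 8.39, 8.45 and 7.88 in the chronic phase, by 1.29 (SE 0.18, adjusted p = 0.0379). On the exponential arrays it stood at 8.47, 8.40, 9.42, 7.32 and 8.48, all above wild type, and the difference of 1.47 (SE 0.37) was not called (adjusted p = 0.163). Pprc1, a coactivator of respiratory genes, stood at 2.30, 2.21 and 2.41 in wild type, 2.49, 2.88 and 2.75 in the chronic phase and 2.63, 3.17, 3.00, 2.66 and 2.99 in the exponential phase. All its leukemia arrays lay above wild type (chronic difference 0.40, SE 0.14, adjusted p = 0.330, and exponential 0.58, SE 0.14, adjusted p = 0.147). Tfam, which packages and transcribes mitochondrial DNA, had differences of 0.52 (SE 0.23, adjusted p = 0.464) and 0.34 (SE 0.19, adjusted p = 0.646) with overlapping arrays. Nrf1, Gabpa and Ppargc1b had differences between -0.26 and 0.21 in these comparisons. Ppargc1a, a coactivator prominent in muscle and brown fat, had 1 high chronic array, with 4.64 on chronic replicate 2 against 2.34 and 2.18 on the others.

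Genes of other large complexes gave the scale for these shifts. In chronic against wild type the median log2 difference was 0.18 for 77 mitochondrial ribosomal protein genes (59 above 0, 1 called, Mrps26), 0.20 for 59 cytosolic ribosomal protein genes (46 above 0, 0 called) and 0.25 for 50 proteasome subunit genes (40 above 0, 0 called), close to the 0.18 of the oxidative phosphorylation genes. In exponential against chronic the medians were -0.07, 0.09 and -0.19, against -0.12. A difference between these lists was not tested.

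The promoters were examined for motifs of factors known to act on respiratory genes, because several genes of different complexes lay together above wild type. RefSeq promoters of assembly GRCm38.p6 were matched for 73 of the 89 genes, and the 250 bases before each start were searched on both strands. The NRF1 motif (GCGCA, any base, GCGC) was found in 13 of the 73 promoters (17.8%), against 5.84% of the promoters of 17491 genes. The ETS motif, CCGGAAG, the core bound by GABP, was also found in 13 (17.8%, against 10.2%). The YY1 motif, AAGATGGCG, was found in 1 (1.37%, against 0.840%) and the E-box CACGTG, bound by MYC and other factors, in 6 (8.22%, against 7.61%). The promoters of Ndufaf4, the called gene, and of Ndufb6 and Uqcr11, the genes with the most positive and the most negative difference in chronic against wild type, are given from 5′ to 3′ on the strand of the gene, ending just before its start, with the motif match in capitals. The Ndufaf4 promoter (GRCm38.p6, chr4:24897833-24898082, plus strand) held an NRF1 motif beginning 113 bases before the start. The Ndufb6 promoter (chr4:40279422-40279671, minus strand) held the ETS motif in reverse complement 232 bases before it, and the Uqcr11 promoter (chr10:80406822-80407071, minus strand) held the ETS motif 66 bases before it.
Ndufaf4: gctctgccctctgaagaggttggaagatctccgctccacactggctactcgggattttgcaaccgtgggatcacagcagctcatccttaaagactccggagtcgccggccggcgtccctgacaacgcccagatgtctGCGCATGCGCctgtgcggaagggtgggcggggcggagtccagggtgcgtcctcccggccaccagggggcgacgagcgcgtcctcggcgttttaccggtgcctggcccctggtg
Ndufb6: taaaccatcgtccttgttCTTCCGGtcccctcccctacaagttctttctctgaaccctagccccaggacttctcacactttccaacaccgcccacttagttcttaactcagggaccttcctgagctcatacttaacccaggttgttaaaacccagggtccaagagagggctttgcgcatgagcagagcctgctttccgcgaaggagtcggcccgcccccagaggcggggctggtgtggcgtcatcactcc
Uqcr11: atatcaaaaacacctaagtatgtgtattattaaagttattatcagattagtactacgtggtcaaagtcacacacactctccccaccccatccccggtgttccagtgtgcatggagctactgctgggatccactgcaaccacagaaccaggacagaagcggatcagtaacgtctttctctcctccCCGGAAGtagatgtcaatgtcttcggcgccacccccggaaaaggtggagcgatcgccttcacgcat

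A motif match is a description of letters, and binding was not measured. In chronic against wild type the 13 genes with an NRF1 motif had a median log2 difference of 0.23 (12 above 0), and the 60 without it 0.18 (42 above 0). The 13 genes with the ETS motif had 0.41 (11 above 0), and the 60 without it 0.16 (43 above 0). For exponential against wild type the order for NRF1 was the other way, with 0.06 (9 of 13 above 0) against 0.13 (40 of 60), while the ETS motif had 0.17 (10 of 13) against 0.09 (39 of 60). The 6 genes with the E-box had lower medians than the 67 without it, 0.16 against 0.20 in chronic and -0.04 against 0.12 in exponential against wild type. The ETS motif stood before both Ndufb6 and Uqcr11. In chronic against wild type Ndufb6 differed by 1.42, and Uqcr11 by -1.04 in the row used and -0.22 in its dimmer row. A part of the motifs in these differences was not tested.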

How the data were processed

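Expression was measured on 11 Affymetrix Mouse Gene 1.0 ST arrays. The authors deposited log2 values, made by RMA background correction and quantile normalization across the arrays. This normalization makes the arrays alike, so a shift shared by all genes would not be seen. The gene values used here did not share exactly 1 distribution, since repeating the quantile normalization on them moved the median of chronic against wild type from 0.18 to 0.13. Without detection calls no background level was set, and precision is limited by the small number of arrays.

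Of 34760 rows, 21640 carried 1 gene symbol in the platform annotation, 1321 several and 11799 none. Rows with 1 symbol were used (21553 matched RefSeq by Entrez identifier, 0 symbols updated), with the highest-mean row for the 954 genes that had several, 17 of them oxidative phosphorylation genes. This left 19937 genes without a filter on dim rows. Rows with several symbols that matched the rule (6) were left out.

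Each comparison was fitted on its own arrays with limma 3.58.1 in R 4.3.3 (lmFit, eBayes), as the study analysed each phase separately, with Benjamini-Hochberg adjustment over all genes. Groups came from the labels' titles. SE values are those of the moderated fit and SDs are between arrays. The fits were tested on simulated data. Alternatives were 2 filters on dim genes, 3 other normalizations, 1 fit to all groups together, a replicate block, a variance trend, array weights, the methods' t-test, averaging a gene's rows, dropping the fold threshold and leaving out arrays in turn.

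The genes and lists were chosen with earlier results of these data known. Named were called genes, the 3 largest differences in each direction, the 3 smallest p-values where a direction had no call, and catalytic and isoform subunits. Other genes named were examples, among them some whose groups did not overlap, and not every gene without overlap was named.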

Additional observations from a re-analysis of the deposited data

Results flagged for a closer look

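Of 42 items with 5 exponential arrays each (34 named genes, the 7 groups of subunits and the median of all 89 genes), 1 had an array far from the others. Atp5g1, which encodes a c subunit of the ATP synthase, stood at 4.43 on exponential replicate 2, against 4.26 to 4.29 on the other 4 exponential arrays. Chance alone gives about 1 such item in 20.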

How the results depend on the processing

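In chronic against wild type the number of oxidative phosphorylation genes called was 1. It was 0 with 1 fit over all groups, with the replicate block, with a repeated quantile normalization, with median centring, with cyclic loess and with the methods' t-test, and 2 with a variance trend and robust estimation, which added Ndufb6. It ran from 0 to 1 when each array was left out. In exponential against wild type the number was 0, and with the replicate block it was 1, Ndufaf4 (1.23, SE 0.13, adjusted p = 0.0185). In exponential against chronic it was 0 in every setting run. Correlations of same-numbered arrays ran from -0.04 to 0.18. Arrays of different numbers were not compared, so a pairing by replicate number was not tested. The exponential arrays 4 and 5 have no partner in the block. Over all genes chronic against wild type had 28 calls higher and 63 lower, 46 and 108 with a variance trend, 0 and 0 by the methods' t-test, and 4 and 4 without wild-type replicate 1.

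The medians of the 89 genes kept their sign in all settings and moved by less than the spread between arrays (SD 0.11). This is a loose limit, since the medians themselves were only 0.08 in exponential against wild type and -0.12 in exponential against chronic. The latter was -0.06 without chronic replicate 3. Among the complexes, the tissue isoforms moved to -0.51 and -0.28 against wild type (chronic, exponential) without the dimmest 50% of genes, which left few of them. The filters on dim genes kept 86 and 82 of the 89 genes. Where a gene had several rows, they disagreed in sign for 5, 4 and 5 of 17 genes in the 3 comparisons. No signal threshold over background was available, which limits what can be read from the dimmest genes.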
